A study of Mus musculus with 2 samples.

Results

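The 8 genes described here are Rag1, Rag2, Dntt, Arpp21, Rmnd5a, Ets2, Aqp11 and Cd1d1, which encode the V(D)J recombinase and other products known from double-positive thymocytes. They were chosen by symbol from the 31253 genes of the count matrices, and all 8 were found and detected in every gate described below. The first library came from SETDBf/fCD4-Cre mice, in which a floxed SETDB gene is deleted by Cre under Cd4 control (cKO), and the second from WT mice. Both were thymus cell suspensions enriched with anti-CD25 beads, and droplet single-cell libraries (10x Genomics, v3.1) counted the 3′ ends of their RNAs. The labels do not give strain, age or the number of animals, nor whether Setdb1 or Setdb2 was floxed. CD25 is carried by early double-negative (DN) thymocytes and by regulatory T cells, so the bead step sets the mixture of stages.

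T cells build their receptors by cutting and joining V, D and J gene segments. RAG1 and RAG2 together form the nuclease that cuts, and terminal deoxynucleotidyl transferase, the product of Dntt, adds untemplated nucleotides at the joints. The β chain is assembled in DN cells, cells with a functional β chain divide, and the α chain is assembled in the small resting cells that carry both CD4 and CD8 (double-positive, DP). Successful positive selection ends Rag transcription. CD1d, encoded by Cd1d1, presents lipids to developing natural killer T cells and is carried by DP cells. ARPP21 is an RNA-binding protein, RMND5A is part of a ubiquitin ligase, ETS2 is a transcription factor and AQP11 is a water channel family member.

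The windows before the start sites of the recombination genes are shown because their stage patterns below differ from each other. Rmnd5a is added as 1 of the 2 genes, with Ets2, whose levels differed most between DN and DP cells. RefSeq promoters on GRCm38.p6 were matched by symbol for 7 of the 8 genes, and Cd1d1 was not matched. Only the 250 bases upstream of each start are given, 5′ to 3′ on the gene's strand, with the palindromic E-box motif CANNTG in capitals. The windows are chr2:101649533-101649782 (minus strand) for Rag1, chr2:101624462-101624711 (plus strand) for Rag2, chr19:41029025-41029274 (plus strand) for Dntt and chr6:71440638-71440887 (minus strand) for Rmnd5a.
Rag1: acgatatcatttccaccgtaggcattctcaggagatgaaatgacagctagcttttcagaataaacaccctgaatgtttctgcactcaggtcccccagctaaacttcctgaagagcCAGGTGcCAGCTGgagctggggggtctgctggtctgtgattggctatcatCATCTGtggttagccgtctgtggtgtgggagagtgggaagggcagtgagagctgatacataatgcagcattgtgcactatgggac
Rag2: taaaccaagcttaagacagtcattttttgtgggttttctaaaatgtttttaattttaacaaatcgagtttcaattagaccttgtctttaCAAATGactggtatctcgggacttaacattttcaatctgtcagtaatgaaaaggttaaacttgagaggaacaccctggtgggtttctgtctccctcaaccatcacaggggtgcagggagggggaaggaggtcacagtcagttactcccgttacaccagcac
Dntt: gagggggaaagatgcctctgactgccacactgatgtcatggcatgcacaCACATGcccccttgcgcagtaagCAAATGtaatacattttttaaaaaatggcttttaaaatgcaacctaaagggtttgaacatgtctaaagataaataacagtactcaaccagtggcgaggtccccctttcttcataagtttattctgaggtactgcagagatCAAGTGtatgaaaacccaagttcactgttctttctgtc
Rmnd5a: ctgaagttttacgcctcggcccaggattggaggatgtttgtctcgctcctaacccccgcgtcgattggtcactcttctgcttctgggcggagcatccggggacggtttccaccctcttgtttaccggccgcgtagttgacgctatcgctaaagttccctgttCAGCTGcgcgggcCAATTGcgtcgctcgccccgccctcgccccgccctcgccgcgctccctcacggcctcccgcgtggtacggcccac

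CANNTG occurred 3 times upstream of Rag1, 1 time upstream of Rag2, 3 times upstream of Dntt and 2 times upstream of Rmnd5a. It occurred in 66.2% of the 32851 RefSeq windows of this length, so its presence is common. On both strands CCAAT was found in the windows of Rag1 and Rmnd5a (33.8% of all windows), AGGTCA in that of Rag2 (14.0% of all windows) and GGGCGG 3 times in that of Rmnd5a (32.7% of all windows). TATAAA, present in 12.4% of all windows, was found in none of the 4 printed. The ratio of observed to expected CpG was 0.19 for Rag1, 0.283 for Rag2 and 0.185 for Dntt, below the median of 0.373 over all windows, and 1.14 for Rmnd5a, above it. These matches describe letters and were not set against binding data.

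The cKO library held 8461 barcodes with 76668166 UMIs, of which 7372 cells were kept, and the WT library 7852 barcodes with 89370968 UMIs, of which 6989 cells were kept. The kept cells had a median of 4653 UMIs in cKO and 7700 in WT, and 13 of their barcodes occurred in both libraries. Cells were gated on marker RNA, with none of the 8 genes used. The gates were DN cells without Cd4 or Cd8 RNA and with Il2ra or other DN markers (671 in cKO, 854 in WT), cycling cells without Cd8 RNA (1272 in cKO, 1619 in WT), cycling cells with Cd8 RNA (693 in cKO, 782 in WT), DP cells (2782 in cKO, 1800 in WT), post-selection cells with Trac and Cd5, Cd69, Itm2a or Tox (525 in cKO, 370 in WT) and mature cells with Trac and markers that include Klf2, S1pr1, Ms4a4b and Gimap4 (669 in cKO, 619 in WT). A further gate meant for B and myeloid cells took 675 cKO and 866 WT cells. Without Cd79b and Lyz2 among its markers it took 38 cKO and 46 WT cells. Cd3e, a T cell gene that no gate used, was at 499.3 CPM (counts per 1000000 UMIs of the gate) in its cKO and 520.9 CPM in its WT cells. In cycling cells without Cd8, Cd3e was at 515.1 CPM in cKO and 564.5 CPM in WT. A UMI of Dntt, 1 of the 8 genes, was found in 79.6% of the gate's thinned cKO and 82.2% of its thinned WT cells. The data thus went against the gate's name. It was left out of the stage and genotype comparisons, though not of the profile correlations at the end. DP cells need a Cd8a or Cd8b1 UMI only. Their Cd4 level, which the gate did not use, was 581.5 CPM in cKO and 541.8 CPM in WT. Il2ra, a DN gate marker that encodes CD25, was at 82.1 CPM in cKO and 90.2 CPM in WT DP cells. In DN cells it was at 494.6 CPM in cKO and 498.2 CPM in WT. The deletion could not be checked by the 3′ tags: Setdb1 gave 28.2 CPM in cKO DP cells and 29.4 CPM in WT DP cells, Setdb2 10.2 CPM in cKO and 8.51 CPM in WT, and a tag outside the floxed exons would not report the deletion. The Cre is under Cd4 control, and the DN gate admits no cell with a Cd4 UMI. Cycling cells without Cd8 had Cd4 at 3.45 CPM in cKO and 2.75 CPM in WT, far below DP cells. Whether the gene was already deleted in the cKO cells of these gates was not tested. There is 1 library per genotype, so no test between genotypes was possible, and every interval below is a 95% interval of counting error only.

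Rag1 was a DP gene in both libraries. Its level was 248 CPM in DN cells, 71.4 CPM in cycling cells without Cd8, 103 CPM in cycling cells with Cd8, 1471 CPM in DP cells, 513 CPM in post-selection cells and 188 CPM in mature cells of the cKO library. In the WT library the same 6 gates gave 257, 104, 97.1, 1428, 535 and 171 CPM. The DP level was thus 5.93 times the DN level in cKO (5.61 to 6.27) and 5.56 times in WT (5.28 to 5.84). In CPM both libraries showed a DN level, a low in dividing cells and a several times higher second level in DP cells. Counted per cell the low was limited to cycling cells without Cd8, with 1.32 UMIs in cKO and 1.86 in WT, since those with Cd8 held 2.76 in cKO and 2.79 in WT, above the 2.11 in cKO and 2.27 in WT per DN cell. The order from DP to post-selection to DN to mature cells was the same in both libraries, with every neighbouring ratio's interval above 1, and the 2 cycling gates at the bottom changed places.

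Rag2, whose product is the partner of RAG1, had few UMIs but the same summit. It was at 28.9 CPM in DN cells, 13.3 and 13.0 CPM in cycling cells without and with Cd8, 72.5 CPM in DP cells, 24.7 CPM in post-selection cells and 14.8 CPM in mature cells of cKO, and at 24.2, 12.1, 17.6, 73.2, 31.7 and 12.5 CPM in WT. DN and post-selection levels of Rag2 did not differ beyond counting error in either library. Rag1 gave 20.3 UMIs per Rag2 UMI in cKO DP cells (18.5 to 22.3) and 19.5 in WT DP cells (17.6 to 21.8). In DN cells it gave 8.59 in cKO (7.30 to 10.2) and 10.6 in WT (9.12 to 12.4). In the background cells described below Rag2 was at 7.36 CPM in cKO (0.892 to 26.6) and at 26.0 CPM in WT (11.9 to 49.4). The DN level of WT is thus not above theirs, and its ratio to Rag1 rests on that level. Mature cells with a Foxp3 UMI, split off below, had Rag2 at 0.688 CPM in cKO (0.0174 to 3.83) and 0 CPM in WT (0 to 2.45). In WT that is less than in the background cells. In cKO the intervals overlap, with 1 Rag2 UMI in the Foxp3 cells and 2 in the background cells. Which of these cells come closer to the level of free RNA was not tested.

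Dntt did not share the DP summit when levels are given in CPM. It was at 1483 CPM in DN cells, 927 CPM in cycling cells without Cd8, 735 CPM in cycling cells with Cd8, 1492 CPM in DP cells, 761 CPM in post-selection cells and 365 CPM in mature cells of cKO. The WT values were 1636, 1054, 803, 1596, 820 and 282 CPM. The DP level over the DN level was 1.01 in cKO (0.978 to 1.04) and 0.975 in WT (0.948 to 1.003), which is no difference beyond counting error. Rag1 gave 0.985 UMIs per Dntt UMI in cKO DP cells and 0.895 in WT DP cells, against 0.167 in cKO DN cells and 0.157 in WT DN cells. The cycling trough was also shallower for Dntt: the level in cycling cells without Cd8 over the DN level was 0.625 in cKO and 0.644 in WT, against 0.288 in cKO and 0.403 in WT for Rag1.

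**Figure D1:**
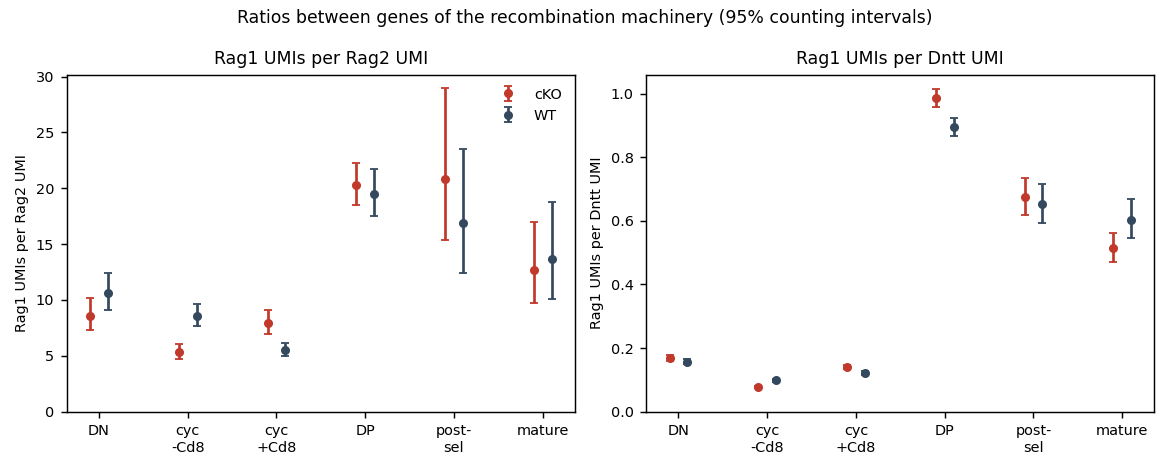
Rag1 UMIs per Rag2 UMI (left) and per Dntt UMI (right) in each gate, with cKO in red left of WT in dark blue and 95% counting intervals. Both ratios are highest in DP or post-selection cells, with 20.3 and 19.5 Rag1 UMIs per Rag2 UMI in cKO and WT DP cells.

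Among the other DP genes, Rmnd5a and Ets2 separated DN from DP cells most. Rmnd5a was at 48.1 CPM in DN cells, 41.5 and 104 CPM in cycling cells without and with Cd8, 811 CPM in DP cells, 466 CPM in post-selection cells and 156 CPM in mature cells of cKO, and at 50.01, 43.5, 102, 753, 406 and 145 CPM in WT. Its DP level was 16.9 times the DN level in cKO (14.9 to 19.1) and 15.1 times in WT (13.6 to 16.8). Ets2 was at 26.6 CPM in DN cells, 19.9 and 38.7 CPM in cycling cells without and with Cd8, 365 CPM in DP cells, 201 CPM in post-selection cells and 80.25 CPM in mature cells of cKO, and at 23.8, 21.8, 38.8, 361, 222 and 81.1 CPM in WT. Its DP level was 13.7 times the DN level in cKO (11.6 to 16.3) and 15.2 times in WT (13.0 to 17.8). Rmnd5a stood higher in cycling cells with Cd8 than in those without, at 104 and 41.5 CPM in cKO and at 102 and 43.5 CPM in WT. The DN levels of both genes lay at or below those of the background cells described below, at 77.3 CPM in cKO and 49.1 CPM in WT for Rmnd5a and at 47.9 CPM in cKO and 26.0 CPM in WT for Ets2. The DN levels are thus not above those cells beyond counting error, and the folds rest on the DP level.

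Arpp21 and Aqp11 had a DN level closer to the DP level. Arpp21 was at 763 CPM in DN cells, 372 and 331 CPM in cycling cells without and with Cd8, 1313 CPM in DP cells, 630 CPM in post-selection cells and 249 CPM in mature cells of cKO, and at 792, 405, 340, 1232, 626 and 199 CPM in WT. Aqp11 was at 391.8 CPM in DN cells, 164 and 142 CPM in cycling cells without and with Cd8, 502 CPM in DP cells, 310 CPM in post-selection cells and 116 CPM in mature cells of cKO, and at 386, 177, 130, 470, 298 and 88.4 CPM in WT. The DP level over the DN level was 1.72 in cKO and 1.56 in WT for Arpp21, and 1.28 in cKO and 1.22 in WT for Aqp11. Both genes thus stood between Dntt and Rag1 in this ratio.

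Cd1d1 had the narrowest range after the cycling stage. It was at 62.8 CPM in DN cells, 27.9 and 19.5 CPM in cycling cells without and with Cd8, 111 CPM in DP cells, 83.7 CPM in post-selection cells and 61.3 CPM in mature cells of cKO, and at 56.0, 26.2, 17.1, 94.1, 62.0 and 44.1 CPM in WT. The mature level over the DP level was 0.550 in cKO (0.474 to 0.638) and 0.469 in WT (0.389 to 0.561), against 0.128 in cKO and 0.119 in WT for Rag1. Its close relative Cd1d2 was looked for, but its symbol did not match a single gene of the matrices, so it has no level here. Reads that also match Cd1d2 may be lost or misassigned, so the Cd1d1 level is uncertain.

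**Figure D2:**
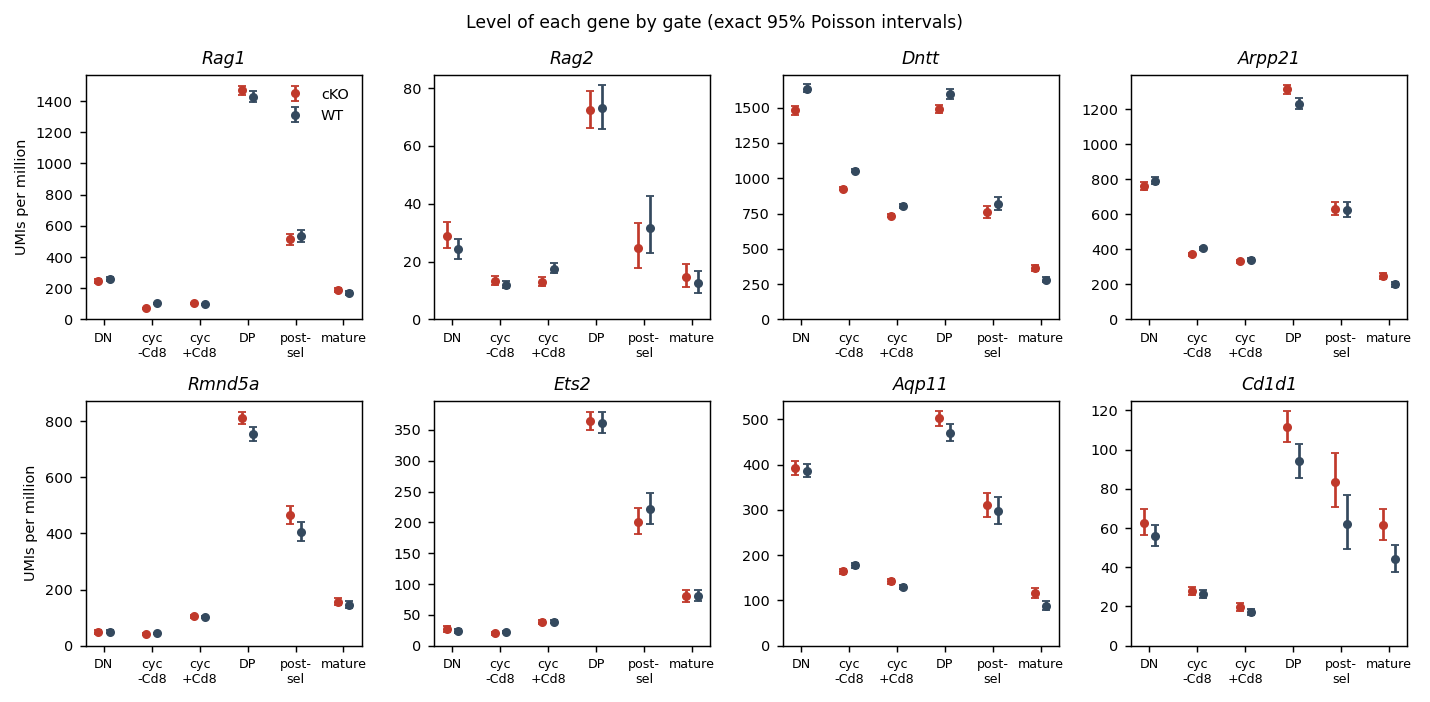
CPM of each gene in the 6 gates, with cKO in red left of WT in dark blue and exact 95% Poisson intervals. Rag1, Rmnd5a and Ets2 peak in DP cells (1471, 811 and 365 CPM in cKO), whereas Dntt is as high in DN cells (1483 CPM in cKO) as in DP cells (1492 CPM in cKO).

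A gene was counted as higher or lower where log2 of the ratio of CPM + 5 passed 1.5-fold. In DP cells over cycling cells with Cd8, 8 of 8 genes were higher in both libraries, beside 36.6% of all genes with at least 20 UMIs in cKO and 36.4% in WT. In DP over DN cells, 6 of 8 were higher in both, beside 24.3% in cKO and 21.9% in WT; Dntt and Aqp11 were not counted. In cycling cells without Cd8 over DN cells, 6 of 8 were lower in both, beside 12.4% in cKO and 11.2% in WT, with Rmnd5a and Ets2 outside. In post-selection over DP cells, 7 of 8 were lower in both, beside 8.3% in cKO and 8.34% in WT, with Cd1d1 outside. In mature over DP cells, 8 of 8 were lower in both, beside 22.3% in cKO and 24.1% in WT. In mature over post-selection cells, 7 of 8 were lower in both, beside 14.6% in cKO and 16.6% in WT, with Cd1d1 outside again. The genes were picked as V(D)J and DP genes, so these counts describe the choice as well as the cells.

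CPM and UMIs per cell gave different orders, because DP cells held a median of 2184.5 UMIs in cKO and 2415.5 in WT against 8229 and 8499.5 in the DN cells of cKO and WT. Per cell, Dntt gave 3.69 UMIs in cKO DP cells and 4.37 in WT DP cells, against 12.6 in cKO DN cells and 14.5 in WT DN cells. In cycling cells with Cd8 it reached 19.6 UMIs per cell in cKO and 23.1 in WT. Rag1 remained higher per DP cell, with 3.63 UMIs in cKO and 3.91 in WT, than per DN cell, with 2.11 in cKO and 2.27 in WT. Arpp21 turned round, with 3.24 UMIs per DP cell in cKO and 3.38 in WT against 6.49 per DN cell in cKO and 7.01 in WT. The UMIs per DP cell over those per DN cell were also below 1 for Rag2 (0.728 in cKO, 0.936 in WT, where the interval of 0.781 to 1.12 includes 1), Aqp11 (0.371 in cKO, 0.377 in WT) and Cd1d1 (0.515 in cKO, 0.520 in WT). Over cycling cells with Cd8, where 8 of 8 genes were higher in CPM, Rag1 alone was higher per DP cell (1.32 in cKO, 1.40 in WT), and the other 7 were lower. Of the 6 genes lower in CPM in cycling cells without Cd8 than in DN cells, Dntt and Arpp21 were higher per cell in both libraries. Cd1d1 per mature cell over that per DP cell was 1.29 in cKO (1.11 to 1.49) and 1.01 in WT (0.844 to 1.22). Rag2 lay on the other side of 1 per cell in cycling cells without Cd8 over DN cells of WT and in mature over post-selection cells of cKO, by less than counting error. The counted UMIs cannot tell a smaller RNA content from a lower capture of DP cells.

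At single-cell level each cell was thinned to 2000 UMIs, which left out 1036 of the cKO DP cells and 439 of the WT DP cells. Rag1 was then found in 87.2% of cKO DP cells and 88.4% of WT DP cells (90.1% in cKO and 91.8% in WT without thinning), against 35.7% of cKO DN cells and 33.2% of WT DN cells. Dntt was found in 89.6% of cKO and 91.8% of WT DP cells, and in 88.8% of cKO and 90.9% of WT DN cells. Rmnd5a was found in 76.2% of cKO and 75.3% of WT DP cells but in 6.60% of cKO and 9.33% of WT DN cells. Rag2 was found in 13.9% of cKO and 14.9% of WT DP cells. As background, cells with B cell or macrophage RNA were taken (at least 2 Cd79a UMIs, or 2 of C1qa and C1qb), 38 in cKO with a median of 5544.5 UMIs and 45 in WT with a median of 5400. Rag1 was at 110.5 CPM there in cKO (74.5 to 158) and at 150.2 CPM in WT (112 to 197). Thinned, 21.6% of 37 cKO cells (9.83 to 38.2) and 22.0% of 41 WT cells (10.6 to 37.6) had a Rag1 UMI. The Rag1 shares of 17.8% in cKO and 22.6% in WT in cycling cells without Cd8 and of 23.5% in cKO and 19.3% in WT in those with Cd8 lay within these intervals. The cycling levels in CPM were below the intervals of the background cells, except in cKO cycling cells with Cd8. Their 103 CPM lay within the interval. The cycling cells are deeper, however, and per cell they held more Rag1 UMIs than the background cells, which had 0.789 in cKO (0.533 to 1.13) and 1.16 in WT (0.863 to 1.52), so the 2 scales differ and the cycling levels are not assigned to background or to the cells. Rag1 was lower than in either in mature cells with a Foxp3 UMI, split off below, at 22.0 CPM in cKO and 8.63 CPM in WT. The background cells thus do not give the lowest level found, and the part of free RNA in the cycling levels was not tested. The DN shares also lay within the intervals, but the DN levels of 248 CPM in cKO and 257 CPM in WT were above them. The mature shares of 19.2% in cKO and 19.6% in WT lay within the intervals, while the mature level was above the interval in cKO (188 CPM) and within it in WT (171 CPM). Among mature cells the RNAs were not spread evenly: a Dntt UMI was found in 87.8% of those with a Rag1 UMI in cKO and 87.2% in WT, against 12.4% in cKO and 8.75% in WT of those without. In the background cells Dntt was at 221 CPM in cKO and 364 CPM in WT, so the mature Dntt level of WT is not above theirs. Arpp21 was at 144 CPM in cKO (102 to 196) and 289 CPM in WT (235 to 351) there, above the mature level of WT, and Aqp11 at 81.0 CPM in cKO (50.8 to 123) and 75.1 CPM in WT (49.1 to 110.0), intervals that hold the mature levels of both libraries. B cells are known to carry CD1d, so the background cells give no background for Cd1d1. Of the thinned background cells, 5.41% in cKO and 2.44% in WT held at least 5 of the 8 genes. Whether some of them express the other genes themselves was not tested, so they are not a clean negative for those either. Mature cells with a Foxp3 UMI held less than the background cells of Dntt (59.8 CPM in cKO, 45.1 CPM in WT) and of Arpp21 (42.6 CPM in cKO, 27.9 CPM in WT). A mature level not above the background cells is therefore not shown to be free RNA.

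Within the DP gate, Rag1 was a smaller share of the RNA of the largest cells but not lower per cell. DP cells with 4000 or more UMIs held 578 CPM in cKO (135 cells) and 622 CPM in WT (132 cells), against 1602 CPM in cKO and 1598 CPM in WT in DP cells of 2000 to under 3000 UMIs. Rmnd5a went the same way, with 293 CPM in cKO and 276 CPM in WT in the largest cells and 893 CPM in cKO and 892 CPM in WT at 2000 to under 3000 UMIs. Dntt differed less, with 1169 CPM in cKO and 1435 CPM in WT in the largest cells and 1557 CPM in cKO and 1645 CPM in WT at 2000 to under 3000 UMIs. Per cell the largest cells held 4.48 Rag1 UMIs in cKO (4.13 to 4.85) and 4.64 in WT (4.28 to 5.02), against 3.85 in cKO and 3.92 in WT at 2000 to under 3000 UMIs. Rmnd5a per cell was 2.27 in cKO and 2.06 in WT in the largest cells and 2.15 in cKO and 2.19 in WT at 2000 to under 3000 UMIs. Ptcra, which encodes the pre-T cell receptor α chain of DN and early DP cells, was higher in the largest DP cells, at 176 CPM in cKO and 219 CPM in WT against 66.95 CPM in cKO and 52.8 CPM in WT.

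Rag1 and Dntt were lower in cells with more selection markers. Non-cycling thinned cells with Cd8 RNA were binned by their UMIs of Cd5, Cd69, Itm2a and Tox. Rag1 stood at 1506, 1297, 781, 466 and 142 CPM at 0, 1, 2, 3 to 4 and 5 or more marker UMIs in cKO, and at 1517, 1254, 843, 532 and 51.3 CPM in WT. Dntt stood at 1521, 1476, 1121, 869 and 274 CPM in cKO and at 1603, 1587, 1205, 806 and 205 CPM in WT. At 3 to 4 marker UMIs the level over that at 0 was 0.310 in cKO and 0.351 in WT for Rag1, and 0.571 in cKO and 0.503 in WT for Dntt. The Rag1 ratio was below the Dntt ratio in both libraries, with intervals that did not overlap (0.257 to 0.370 and 0.499 to 0.652 in cKO, 0.289 to 0.421 and 0.430 to 0.584 in WT). At 3000 UMIs per cell the intervals were again apart in cKO (0.272 to 0.411 and 0.479 to 0.642) but overlapped in WT (0.255 to 0.397 and 0.375 to 0.529). Cd1d1 stood at 120, 104, 97.9, 70.9 and 83.3 CPM in cKO and at 89.4, 102, 116, 63.1 and 89.7 CPM in WT. Its last bin over its first was 0.695 in cKO (0.400 to 1.13) and 1.004 in WT (0.540 to 1.72), while at 3 to 4 marker UMIs the level over that at 0 was 0.592 in cKO (0.352 to 0.938) and 0.706 in WT (0.379 to 1.21), so a lower level was detectable in cKO in that bin and in neither library in the last. The last bin held 102 cKO and 78 WT cells. The bins also differed in markers of the mature stage: Klf2 at 3 to 4 marker UMIs over that at 0 was 8.45 in cKO and 5.95 in WT, and Cd8a 0.716 in cKO and 0.706 in WT, and their part in the result was not tested. With 3000 UMIs per cell the last Rag1 bin over the first was 0.159 in cKO and 0.0867 in WT, against 0.0944 in cKO and 0.0338 in WT at 2000 UMIs.

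**Figure D3:**
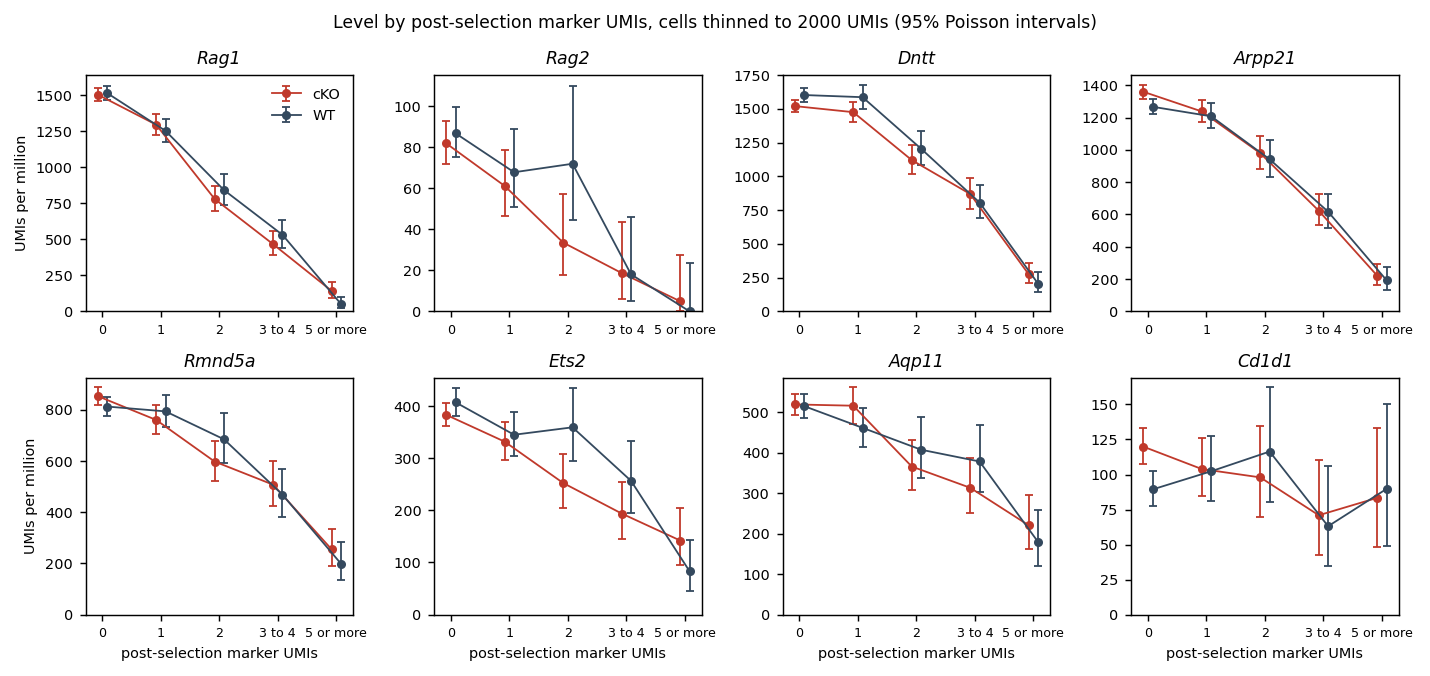
CPM of each gene against the number of post-selection marker UMIs of the cell, after thinning to 2000 UMIs, with cKO in red and WT in dark blue and exact 95% Poisson intervals. Rag1 stands at 1506 CPM in cKO and 1517 CPM in WT without marker UMIs and at 142 CPM in cKO and 51.3 CPM in WT with 5 or more, whereas Cd1d1 stands at 83.3 CPM in cKO and 89.7 CPM in WT with 5 or more.

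In the post-selection gate cells with Rag1 RNA held Dntt and Rmnd5a RNA more often than cells without. Of its thinned cells, 90.4% of those with a Rag1 UMI also had a Dntt UMI in cKO and 89.1% in WT, against 29.5% in cKO and 33.3% in WT of those without Rag1. For Rmnd5a the shares were 75.4% in cKO and 71.0% in WT with Rag1, and 31.5% in cKO and 31.8% in WT without. Cd1d1 differed less, with 21.9% in cKO and 15.2% in WT with Rag1 and 15.0% in cKO and 11.6% in WT without. At least 5 of the 8 genes were found in 29.7% of cKO and 29.2% of WT post-selection cells, 3 or 4 in 24.0% of cKO and 28.3% of WT cells, 1 or 2 in 29.3% of cKO and 20.2% of WT cells, and none in 17.0% of cKO and 22.3% of WT cells of this gate. In DP cells at least 5 were found in 64.4% of cKO and 66.1% of WT cells, and none in 0.974% of cKO and 0.661% of WT cells.

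Mature cells were mixed. Those with a Foxp3 UMI, the marker of regulatory T cells, held 22.0 CPM of Rag1 in cKO (15.0 to 31.1) and 8.63 CPM in WT (4.59 to 14.8), and those without held 288 CPM in cKO and 283 CPM in WT. No thinned cell with Foxp3 had 5 or more of the 8 genes, of 241 in cKO and 231 in WT, whereas 20.9% of cKO and 21.0% of WT mature cells without Foxp3 did. Rmnd5a with Foxp3 was at 62.6 CPM in cKO and 63.7 CPM in WT, within the intervals of the background cells (47.9 to 118 in cKO, 28.6 to 78.6 in WT). At least 3 Rag1 UMIs were found in 8.14% of all mature cells in cKO (6.14 to 10.5) and 9.38% in WT (7.16 to 12.01), and in 5.41% of 37 cKO and 2.44% of 41 WT background cells. Exactly at the gate's limit of 2 marker UMIs stood 145 of the 669 cKO and 153 of the 619 WT mature cells, and the part of doublets, free RNA or late DP cells in the mature level was not tested.

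**Figure D4:**
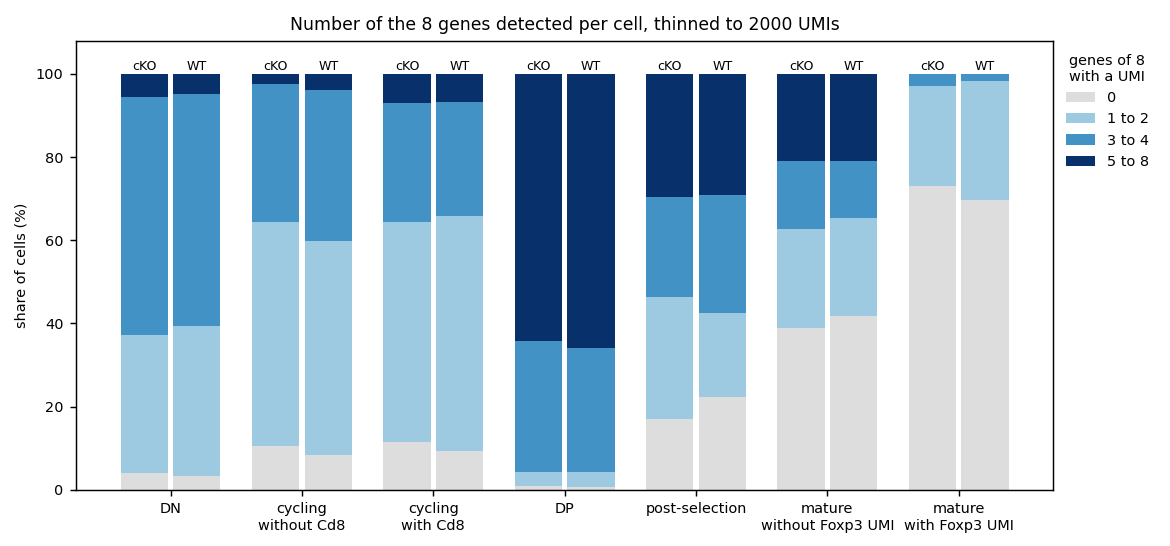
Share of cells by how many of the 8 genes had a UMI after thinning to 2000 UMIs, with cKO left of WT in each gate. The class of 5 to 8 genes holds 64.4% of cKO and 66.1% of WT DP cells and no mature cell with a Foxp3 UMI.

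Between genotypes the 8 genes differed little. In none of the 6 gates was any of them 1.5-fold apart with the gates used. That is 0 of 8 beside 1.66% of all genes in either direction in DN cells, 0.426% in cycling cells without Cd8, 0.386% in cycling cells with Cd8, 1.19% in DP cells, 5.85% in post-selection cells and 3.05% in mature cells. With such backgrounds 0 of 8 is near what all genes show. In DP cells the cKO over WT ratio was 1.03 for Rag1 (0.999 to 1.06), 0.990 for Rag2 (0.863 to 1.14), 1.01 for Ets2 (0.949 to 1.07), 1.07 for Arpp21 (1.03 to 1.10), 1.08 for Rmnd5a (1.03 to 1.12) and 1.07 for Aqp11 (1.01 to 1.12). The upper and lower bounds keep all of these within 1.5-fold as far as counting error goes. With 3 instead of 2 marker UMIs asked of mature cells (524 in cKO, 466 in WT), 4 of the 8 were at least 1.5-fold higher in cKO, beside 2.21% of all genes. These were Rag1, Rag2, Arpp21 and Aqp11, with log2 folds of 0.65, 0.71, 0.89 and 0.84, so the mature result depends on the gate. These folds are given without counting intervals. Rag2 is limited by counts here, since even the larger gate with 2 marker UMIs held 57 of its UMIs in cKO and 46 in WT.

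The farthest ratio was that of Rag1 in cycling cells without Cd8, at 71.4 CPM in cKO and 104 CPM in WT, a ratio of 0.690 (0.649 to 0.733). Of the 10134 genes with at least 100 UMIs there, 40 were as low or lower by this fold (0.395%). Cells with at least 3 Rag1 UMIs after thinning were 1.11% in cKO (0.607 to 1.85) and 3.66% in WT (2.79 to 4.69). In CPM both levels lie below those of the background cells, which were at 110.5 CPM in cKO and 150.2 CPM in WT, and per cell, with 1.32 UMIs in cKO and 1.86 in WT, above theirs of 0.789 in cKO and 1.16 in WT. Rag1 in the background cells was lower in cKO than in WT too, but from 30 UMIs in cKO and 52 in WT. Their intervals overlap (74.5 to 158 CPM in cKO, 112 to 197 CPM in WT). In mature cells with a Foxp3 UMI Rag1 was higher in cKO, at 22.0 CPM against 8.63 CPM in WT. The part of free RNA in the ratio was not tested. Over the 11 alternatives the log2 fold was between -0.55 and -0.23, against -0.51 here, and a stricter cell filter gave the -0.23. Rag2 in the same gate had a ratio of 1.10 (0.945 to 1.29), and in cycling cells with Cd8 a ratio of 0.738 (0.626 to 0.869), where Rag1 had 1.06 (0.999 to 1.13). The Rag2 levels behind the 0.738 were 13.0 CPM in cKO and 17.6 CPM in WT, from 240 UMIs in cKO and 395 in WT.

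Dntt was slightly lower in cKO in the 4 gates up to DP, with ratios of 0.906 in DN cells (0.881 to 0.932), 0.879 and 0.915 in cycling cells without and with Cd8, and 0.935 in DP cells (0.908 to 0.963). In mature cells its ratio was 1.29 (1.19 to 1.40), with 365 CPM in cKO and 282 CPM in WT. The share of mature cells with at least 3 Dntt UMIs was 15.2% in cKO (12.5 to 18.2) and 13.7% in WT (11.1 to 16.8), which overlap. Over the 11 alternatives its log2 fold in mature cells was between 0.14 and 0.58.

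Cd1d1 was above WT in cKO in all 6 gates, with ratios of 1.12, 1.06, 1.14, 1.19, 1.35 and 1.39 from DN to mature cells. The interval excluded 1 in DP cells (1.06 to 1.33), post-selection cells (1.03 to 1.79) and mature cells (1.14 to 1.71). In mature cells 2.43% of 6870 genes were as high or higher by this fold, and in DP cells 7.88% of 8131. The direction held in all 11 alternatives in these 3 gates. The levels were 61.3 CPM in cKO and 44.1 CPM in WT mature cells. With a Foxp3 UMI they were 38.5 CPM in cKO and 39.8 CPM in WT, and without one 75.2 CPM in cKO and 47.0 CPM in WT.

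**Figure D5:**
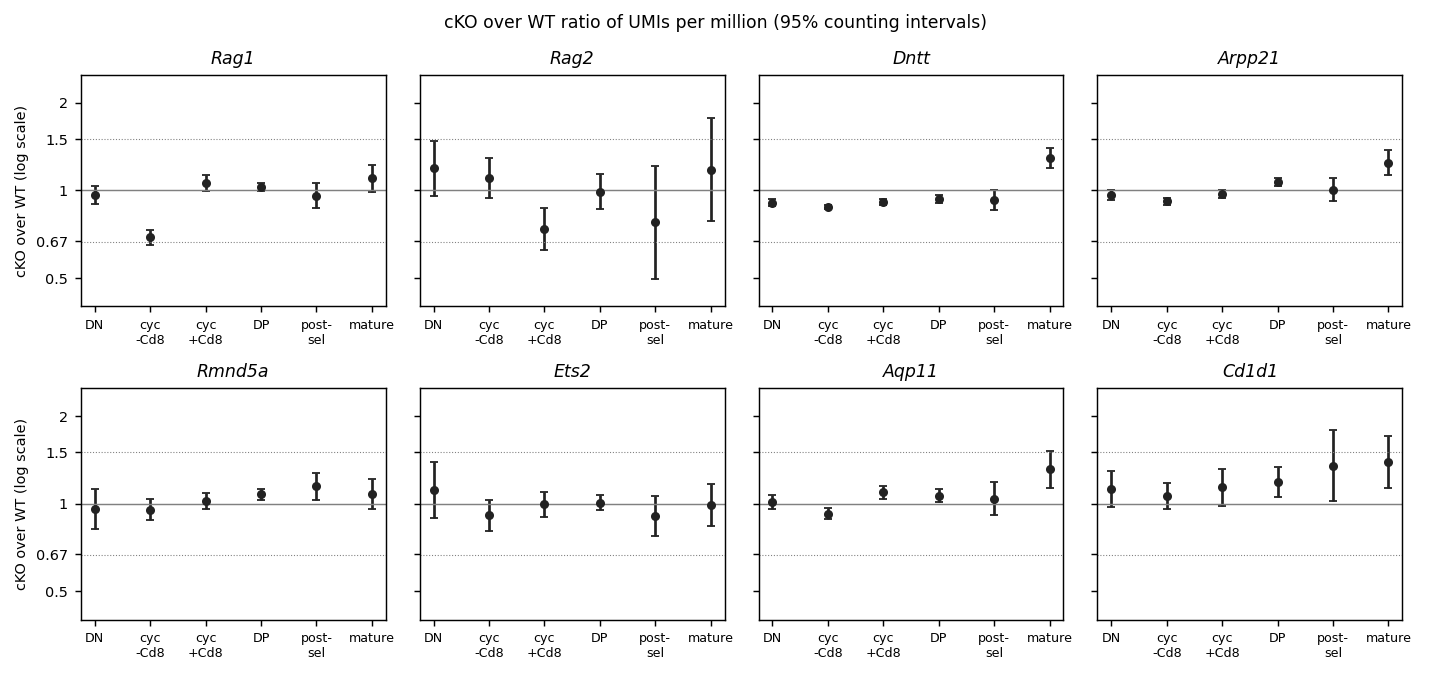
The cKO over WT ratio of CPM for each gene and gate on a log axis, with 95% counting intervals and dotted lines at 1.5-fold either way. No point lies outside the dotted lines, the lowest being Rag1 in cycling cells without Cd8 (0.690) and the highest Cd1d1 in mature cells (1.39).

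The genes around this program were followed in 3 lists. The list of V(D)J joining factors holds genes that repair the ends left by the recombinase, and also Hmgb1 and Hmgb2. In DP over DN cells of cKO, 6 of 16 were higher and 3 lower, beside 24.3% of all genes higher and 13.5% lower. In WT, 6 of 17 were higher and 4 lower, beside 21.9% higher and 13.7% lower. The higher genes included Hmgb1 in both libraries (log2 fold of 0.94 in each) and Hmgb2 in WT (0.63). The most abundant of the list, Hmgb1, encodes an architectural DNA-binding protein that assists RAG cutting. It was at 2334 CPM in cKO and 2345 CPM in WT DP cells. Of 17 regulators of the Rag and DP program, 12 were higher and 2 lower in DP over DN cells in cKO, and 10 higher and 2 lower in WT. Satb1, a chromatin organiser of thymocytes, was the most abundant at 2697 CPM in cKO and 2523 CPM in WT DP cells. Of 14 other DP-stage genes, 12 were higher in DP over DN cells in both libraries, with 2 lower in cKO and 1 lower in WT, and Cd8b1, a chain of the CD8 coreceptor, was at 2616 CPM in cKO and 2640 CPM in WT DP cells. Cd4, Cd8a and Cd8b1 are used by the gates, which leave none of their UMIs in DN cells, so their calls were set by the gating. Without them 9 of 11 were higher in both libraries, with 2 lower in cKO and 1 lower in WT, and the median log2 fold was 2.29 in cKO and 2.15 in WT. The median log2 fold of DP over DN was 0.38 in cKO and 0.38 in WT for the joining factors, 1.07 in both for the regulators and 2.92 in cKO and 2.78 in WT for the other DP-stage genes with those 3 included, beside 0.19 in cKO and 0.15 in WT over all genes.

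Between genotypes, on the scale of CPM + 5 and among genes with at least 20 UMIs, Ly6d in mature cells was the 1 list gene past 1.5-fold in the 6 gates, whose shares of all genes are given above. It was at 494 CPM in cKO and 324 CPM in WT (ratio of CPM 1.52, 1.42 to 1.64), and was named after its value was seen. By the ratio of CPM alone, with no constant added, several others with at least 20 UMIs, likewise named after their values were seen, were also past it. In mature cells these were Nhej1 (1.798, 0.987 to 3.38) and Dclre1c (1.51, 1.04 to 2.21), in cycling cells with Cd8 Cd4 (1.51, 1.32 to 1.73) and Poll (0.525, 0.349 to 0.776), in cycling cells without Cd8 Id3 (0.666, 0.611 to 0.725), and in DN cells Id3 (0.662, 0.506 to 0.859), Poll (0.584, 0.295 to 1.10) and Slc7a11 (1.64, 0.937 to 2.90). Ly6d encodes a surface protein of early lymphoid cells. In DP cells the median log2 fold of cKO over WT was 0.08 for the joining factors, 0.02 for the regulators and -0.05 for the other DP-stage genes, beside -0.00074 over all genes.

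The genes whose levels ran most like Rag1 over the 6 gates and the B and myeloid gate of both libraries (Pearson r of log2 of CPM + 5 over 14 points that share 2 libraries) were Hectd3 (0.99), Ilvbl, Clcn3, Kctd18, 1300002E11Rik, H2bu2, Tspyl4 and Zfp846 (0.984). Rag2 ranked 518 of 10838 genes at 0.937, and Dntt 5413 at 0.348. For Dntt they were Marcks (0.976), Mrgpre, Rapgef3, 2610507B11Rik, Ly6d, Ift57, Cux1 and 2900079G21Rik (0.949), with Arpp21 at 154 and Aqp11 at 186 as the nearest of the 8 genes. Ilvbl was at 270 CPM in cKO and 297 CPM in WT DP cells against 125 CPM in cKO and 114 CPM in WT DN cells. Marcks was at 437 CPM in cKO and 445 CPM in WT DP cells against 482 CPM in cKO and 484 CPM in WT DN cells.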

How the data were processed

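Thymus cells enriched with anti-CD25 beads were measured in 1 cKO and 1 WT library. The authors deposited unnormalized UMI counts, one matrix a library, made with Cell Ranger 6.1.1 per the file headers. CASAVA 1.8 and Seurat 4.0.3 are further tools in the submitters' processing notes. Their genome build was not given in the sources used here. Barcodes were kept from 500 genes and 1000 UMIs upward, with mitochondrial UMIs up to 10%, and doublets were removed with scrublet in scanpy 1.11.5 (129 in cKO, 148 in WT). The automatic threshold called 1 cKO barcode, so the WT threshold of 0.29 was used for both. Gates were taken in the order B and myeloid (2 UMIs), cycling (3 UMIs and 5 per 10000), mature, post-selection (2 UMIs and Trac each), DP and DN. UMIs were summed per gate and scaled to the gate's sum (CPM). Sums carry exact Poisson intervals, and shares and ratios exact binomial (Clopper-Pearson) ones, at 95%. Intervals cover counting error only. The fold and ratio steps were tested on simulated counts, and the thinning step on cells of the WT library.

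The 8 genes and the 3 lists were chosen with earlier results of these data known. Named genes are the 8 genes, the 8 most like Rag1 and the 8 most like Dntt, list genes 1.5-fold apart in DP cells, and the highest gene of each list. Alternatives covered cell filter, doublets, gates, thinning, scaling and pseudocount. The background cells with Cd79a or C1q RNA, the Foxp3 split, the depth bins, the co-detection, the counts per cell, the list without gate genes and the ranks among all genes were added after the data had been seen.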

Additional observations from a re-analysis of the deposited data

Results flagged for a closer look

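Signal of the 8 genes summed was present outside the gates. Barcodes left out by the cell filter held 2301 CPM in cKO and 2087 CPM in WT, and ungated cells 1131 CPM in cKO and 559.7 CPM in WT. In gated cells the sum was 6138 CPM in cKO and 6008 CPM in WT DP cells.

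Some genes had cKO over WT ratios on opposite sides of 1 in different gates, and these differences between gates were not tested. Dntt was at 1.293 in mature cells but at 0.906 in DN cells, 0.879 in cycling cells without Cd8, 0.9146 in cycling cells with Cd8 and 0.9353 in DP cells. Arpp21 was at 1.066 in DP and 1.246 in mature cells but at 0.9178 in cycling cells without Cd8. Aqp11 was at 1.095 in cycling cells with Cd8, 1.067 in DP and 1.315 in mature cells but at 0.9238 in cycling cells without Cd8. The mature levels of Arpp21 in WT (199 CPM) and of Aqp11 in both libraries (116 CPM in cKO, 88.4 CPM in WT) are not above those of the background cells.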

How the results depend on the processing

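No paired analysis was possible because each genotype has 1 library. No value past 1.5-fold turned round under the alternatives in CPM, but counted per cell, a scale added after seeing the data, 3 of the 6 genes past it in DP over DN cells and 7 of the 8 in DP over cycling cells with Cd8 lay on the other side of 1 in both libraries. No cKO over WT fold was past it with the settings used, and of the 48 gene and gate values 28 kept their side of 0 in all 11 alternatives. Of 528 cKO over WT values, 477 stayed within the counting interval, as did 635 of 960 stage ratios, 21 of 56 shares and 12 of 14 ladder ratios. With 3 marker UMIs for the post-selection and mature gates, 4 of the 8 genes were at least 1.5-fold higher in cKO mature cells, against 0 with 2, beside 2.21% and 1.63% of all genes. Scored as the mean of per-cell CPM, 2 genes were lower in cycling cells without Cd8 over DN cells in WT, against 6. The Rag1 share of DP cells was 82.7% in cKO and 83.8% in WT at 1500 UMIs, 83.4% in cKO and 84.7% in WT at 3000 UMIs, and 90.1% in cKO and 91.8% in WT without thinning. At 3000 UMIs the last ladder bin over the first was 0.159 in cKO and 0.0867 in WT for Rag1. The cause of these shifts was not tested. With 1 library per genotype the spread between animals is unknown, and Rag2 is limited by counts, with 43 UMIs in the post-selection cells of each library. Of these alternatives, the one without Cd79b and Lyz2 in the B and myeloid gate was chosen after seeing the data. So was a binning of DP cells by Trac UMIs, in which Rag1 at 5 or more over that at 0 was 0.986 in cKO and 0.897 in WT, but the gate leaves out cells with Trac and 2 selection marker UMIs, so this is not comparable with the binning by selection markers.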
